A study of Homo sapiens with 9 samples.

Results

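The sites described here are 265 positions that were deeply covered in HepG2 cells with a control shRNA and that neither SETD2 knockdown list held at the same base. They were chosen by 2 values of the deposited site lists. A member had a score of 100 or more in the control list, and its base and strand were in neither knockdown list. Sites on the mitochondrial and Y chromosomes were left out. The 265 members are part of 3755 control sites in all, of 3717 control sites outside those chromosomes (called nuclear below) and of 417 nuclear control sites with a score of 100 or more (called deep below). The other 152 deep sites, found again in at least 1 knockdown list, serve as the comparison. The cells were HepG2, an established line derived from hepatocellular carcinoma. Lentiviral transduction and puromycin selection gave 3 stable populations, one with shCtrl, a hairpin without a specific target, and the others with shSETD2_1 or shSETD2_2, which both target SETD2 (hairpin 1 and hairpin 2 below). The labels give 3 replicates per shRNA and assign 1 site list to all of them, so no value has a replicate error and nothing says whether replicates were separate cultures. That SETD2 was knocked down rests on the labels, since the lists hold no level of its transcript, and HepG2 markers could not be checked because the sites carry no gene names.

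N6-methyladenosine (m6A) is the most abundant internal modification of mRNA. It is laid down during transcription by a complex of METTL3, the catalytic subunit, METTL14, which helps to hold the RNA, and WTAP, and it affects the stability, splicing and translation of transcripts through reader proteins. SETD2 is the enzyme that trimethylates lysine 36 of histone H3 over the bodies of transcribed genes, and METTL14 has been described to bind this mark. In miCLIP, an m6A antibody is crosslinked to RNA, and the copying enzyme tends to misread the RNA beside the crosslink, which appears as C-to-T changes next to the modified base. The series names the assay as miCLIP, while the sample titles name m6A-seq and the protocol in the labels mentions no crosslinking, so a C-to-T change here need not mark m6A. The site names carry the words rbsSeeker and CT, and each site is 1 nt long, given below by its hg19 position.

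The score was taken as the number of reads over the site, as inferred from the order of the running numbers in the site names. Each site's number of C-to-T reads was reconstructed from that order, by asking which whole number keeps the one-sided binomial probability of so many changed reads, or more, rising along the running numbers. A background rate of 1.57% placed all 3755 control sites in order, and rates more than 0.05 percentage points away placed at most 185 of them. The corresponding rates were 1.43% for the 482 sites of hairpin 1 and 1.00% for the 697 sites of hairpin 2. A single number of changed reads was possible at 98.6%, 97.7% and 97.0% of the sites of the 3 lists, called resolved below. The lists did not reach sites with far fewer changed reads than the background rate gives. The highest binomial probability of a resolved site was 0.872 (control), 0.817 (hairpin 1) and 0.811 (hairpin 2), and a resolved site with 1 changed read was covered by at most 130, 118 and 165 reads. Among resolved sites, deeper positions were thus listed only with more changed reads. Intervals given below are 95% exact Clopper-Pearson intervals. They treat sites as independent and cover counting error only.

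Most deep control sites were in neither knockdown list, but they were found again more often than shallow ones. The 265 members made up 63.5% of the 417 deep sites (interval 58.7 to 68.2), where 90.2% of all nuclear control sites were in neither list. Because the rule fixes this count, it is a description and was not tested. The knockdown lists held only 454 (hairpin 1) and 670 (hairpin 2) nuclear sites, against 3717 in control. Most nuclear control sites thus had to be absent from them by list length alone. Of the 152 deep sites found again, 45 were in both knockdown lists, 59 in that of hairpin 1 only and 48 in that of hairpin 2 only. Taken singly, hairpin 1 lacked 313 deep sites, or 75.1% (70.6 to 79.1), beside 94.4% of all nuclear control sites. Hairpin 2 lacked 324, or 77.7% (73.4 to 81.6), beside 93.8%.

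The share absent was lower at higher coverage in the control list, though not at every step. Among sites with 3 to 9 reads, 98.0% were absent from both lists (interval 97.1 to 98.6), and among those with 50 to 99 reads 79.4% (75.1 to 83.2). The share was 73.4% (66.5 to 79.6) between 100 and 149 reads, 63.75% (52.2 to 74.2) between 150 and 199, 70.8% (58.2 to 81.4) between 200 and 299, 50% (34.2 to 65.8) between 300 and 499, and 21.4% (10.3 to 36.8) at 500 reads or more, where 9 of 42 sites were absent. No step was seen at the limit of 100 that the rule uses. The members just inside it were the site chr17:38146444 (plus strand) and the site chr19:8520405 (plus strand), each with 1 changed read among 100, and the site chr5:165809393 (plus strand) with 4 among 100. Just outside it were 4 absent sites with 99 reads. Of the 3 named here, the site chr12:53431275 (plus strand) had 3 changed reads, the site chr17:27076622 (plus strand) had 1 and the site chr19:47278840 (minus strand) had 2. There were 51 members with 100 to under 110 reads and 45 absent sites with 90 to 99.

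**Figure D1:**
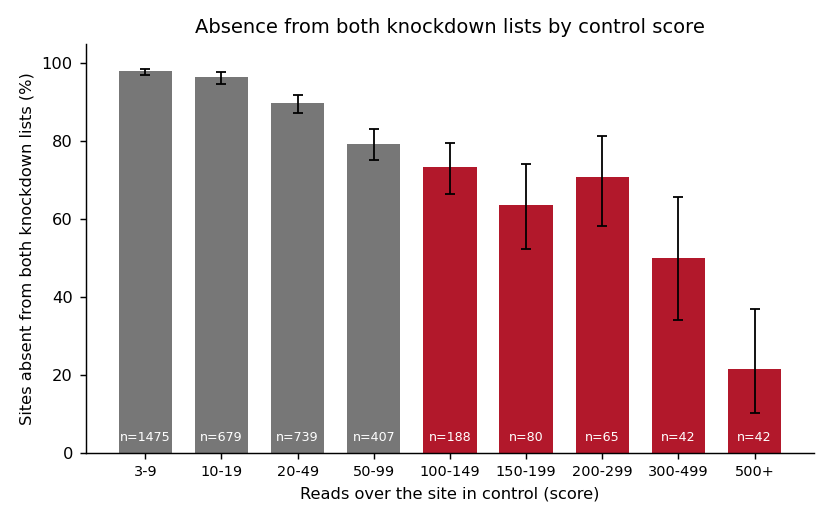
Percentage of nuclear control sites absent from both knockdown lists (y axis) by reads over the site in control (x axis, 9 ranges). Bars in red are the ranges from which the 265 members come, error bars are 95% exact Clopper-Pearson intervals, and the share goes from 98.0% at 3 to 9 reads to 21.4% at 500 reads or more.

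With the lists exchanged, many deep knockdown sites were likewise missing, here from the 1 control list, which was the longer one with 3717 nuclear sites. Of the 41 nuclear sites with a score of 100 or more in the list of hairpin 1, 24 had no row in the control list, or 58.5% (interval 42.1 to 73.7). Of the 99 such sites of hairpin 2, 61 had none, or 61.6% (51.3 to 71.2). Among all their nuclear sites the shares were 54.0% (245 of 454) with hairpin 1 and 65.5% (439 of 670) with hairpin 2. A deep position missing from a compared list was thus not confined to the control. With 1 list searched in the other direction as well, the shares were higher: hairpin 1 lacked 75.1% of the deep control sites and hairpin 2 lacked 77.7%. The differences between these shares, or from the 63.5% absent from both, were not tested.

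Most members were only moderately deep. Their median score was 146 reads (quartiles 115 to 219), 138 of 265 had fewer than 150 reads, 235 had fewer than 300 and 9 had 500 or more, up to 6489. They were 7.13% of the nuclear control sites and held 28.9% of the reads summed over them. The 152 deep sites found again had a median of 195.5 reads (127 to 422) and a highest value of 16513.

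At the typical member, C-to-T changes were as frequent as the background rate of the list. The number of changed reads was resolved at 261 members, with a median of 3 (quartiles 2 to 5). Their median C-to-T share was 1.56% (quartiles 0.990 to 2.88), beside the fitted rate of 1.57%, and 133 of 261, or 51.0% (interval 44.7 to 57.2), lay under that rate. At the 136 resolved deep sites found again the median was 7.5 changed reads and a share of 2.37% (quartiles 1.52 to 4.88). Of these 136, 36, or 26.5% (19.3 to 34.7), lay under the rate. The rest of the 152 were unresolved, each with at least 33 changed reads, so leaving them out lowered these medians. A single changed read lay under 62 of the resolved members, or 23.8% (18.7 to 29.4), and under 14 of the 136 found again, or 10.3% (5.74 to 16.7). All nuclear control sites had a median share of 13.3%. This value is set largely by shallow sites, where 1 changed read is already a large share. Summed over resolved sites, 2.16% of the reads at members and 3.16% at the sites found again were changed. Leaving out the unresolved sites lowered the 3.16% too. They include the deepest site found again, with 16513 reads and at least 567 changed.

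**Figure D2:**
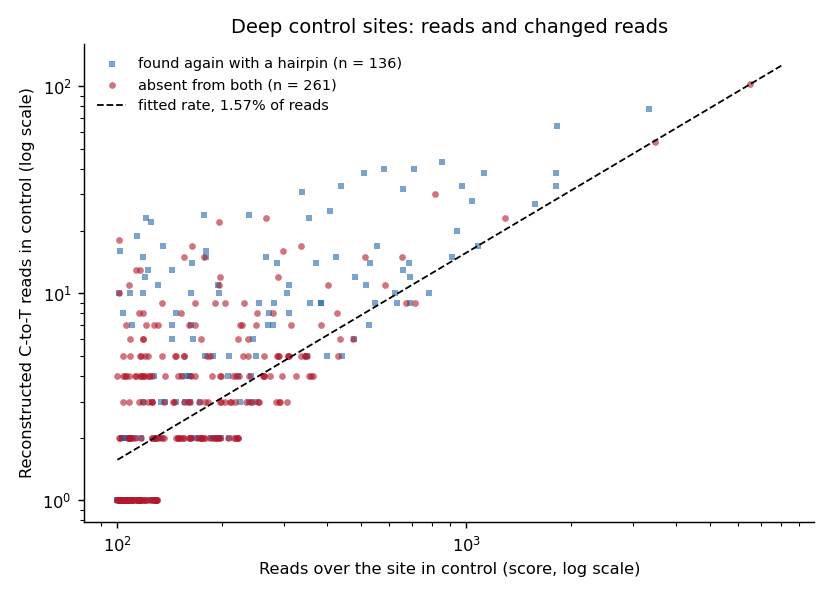
Reads over the site (x axis, log scale) against reconstructed C-to-T reads (y axis, log scale) for the resolved deep control sites, with 261 absent from both knockdown lists (red circles) and 136 found again (blue squares). The dashed line marks the fitted rate of 1.57% of reads, which runs through the middle of the red points, and the site with 6489 reads and 102 changed reads lies on it.

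Few members passed a test for more changed reads than the background rate gives. With the one-sided exact binomial probability at the fitted rate, Benjamini-Hochberg adjusted over the 73157 running numbers of the control list, 36 of 265 members passed an adjusted p of 0.05. That is 13.6% (interval 9.70 to 18.3), where 41.5% of all nuclear control sites passed, and 62 of the 152 deep sites found again, or 40.8% (32.9 to 49.0). The number of positions the caller ranked beyond the last listed site is not known, and unresolved sites entered at their lowest possible number of changed reads. Neither the caller's rate nor the changed reads were used to choose the members, but being listed in a knockdown required changed reads there. The difference between members and sites found again was seen in ranges of control coverage, and it was not tested because sites are not replicates of a condition. Between 100 and 149 reads the median share was 1.53% at members and 1.99% at sites found again, with 17 of 138 and 19 of 50 passing. Between 150 and 299 reads the medians were 1.68% and 2.5%, with 16 of 97 and 16 of 48 passing. At 300 reads or more they were 1.55% and 2.35%, with 3 of 30 and 27 of 54 passing.

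The share absent was also lower at 10 or more changed reads. Among deep sites with 1 changed read, 62 of 76 were in neither knockdown list, or 81.6% (interval 71.0 to 89.5). With 2 changed reads the share was 73.5% (50 of 68), with 3 or 4 it was 77.9% (67 of 86) and with 5 to 9 it was 67.0% (59 of 88), and these intervals overlap. With 10 to 19 changed reads, 17 of 51 were absent, or 33.3% (20.8 to 47.9), and with 20 or more 6 of 28, or 21.4% (8.30 to 41.0). Only resolved sites were counted. Most unresolved deep sites had 20 or more changed reads at their lower bound, and most of those were found again. Sites with more changed reads were mostly deeper, with a median of 110 reads at 1 changed read and 761.5 at 20 or more. From 5 to 9 to 10 to 19 changed reads, where the share absent fell most, the median went from 229.5 to 196 reads. The part of each was not separated.

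**Figure D3:**
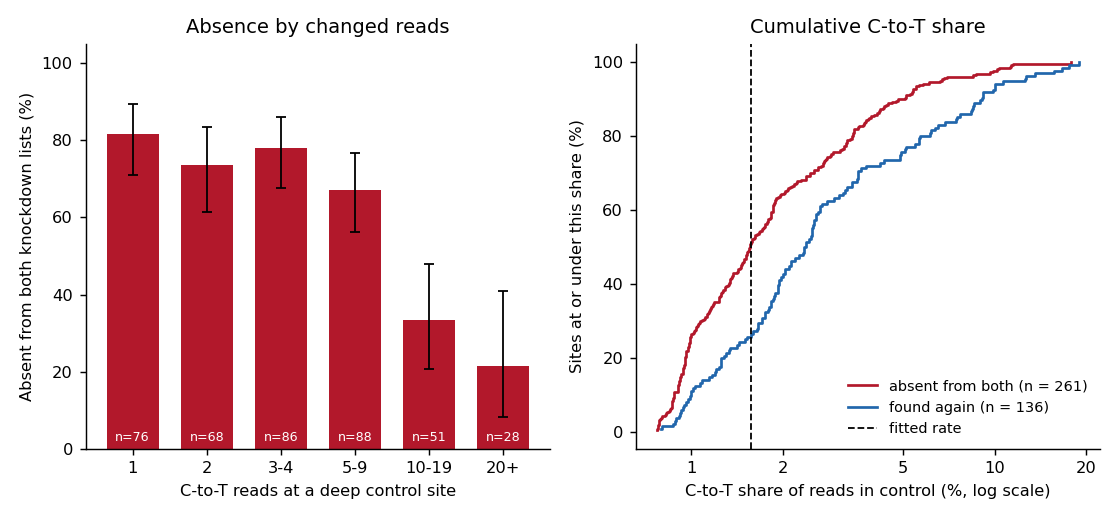
Left, percentage of resolved deep control sites absent from both knockdown lists (y axis, bars with 95% exact intervals) by number of C-to-T reads in control (x axis), falling from 81.6% at 1 read to 21.4% at 20 or more. Right, cumulative percentage of sites (y axis) by C-to-T share (x axis, log scale), where 51.0% of the sites absent from both (red) and 26.5% of those found again (blue) lie left of the fitted rate (dashed line).

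The deepest members followed the background rate closely. The site chr18:12326396 (plus strand) had 102 changed reads among 6489 (1.57%, interval 1.28 to 1.90). The site chr12:46754879 (minus strand) had 54 among 3479 (1.55%, 1.17 to 2.02), and the site chr4:7032275 (plus strand) had 23 among 1293 (1.78%, up to 2.66). Each of these intervals holds the fitted rate. Of the 25 deepest members, which reach down to 324 reads, 15 lay under the rate and 3 passed the adjusted binomial test.

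The 3 that passed were the site chr8:27455529 (minus strand), with 30 changed reads among 814 (3.69%, interval 2.5 to 5.22), the site chr11:85195068 (plus strand), with 17 among 337 (5.04%, 2.97 to 7.95), and the site chr3:133307150 (plus strand), with 15 among 512 (2.93%, 1.65 to 4.79). The last was close to the threshold, with an adjusted p of 0.048 by the exact binomial test. Shares above the rate that did not pass were 2.74% at the site chr10:77158400 (minus strand; 11 of 402 reads) and 2.30% at the site chr15:58889406 (minus strand; 15 of 653). They were 1.88% at the site chr7:104753752 (plus strand; 11 of 585), 1.88% at the site chr11:118770025 (minus strand; 8 of 426) and 1.82% at the site chr22:42482136 (minus strand; 7 of 384).

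The remaining members of the 25 were under the rate. On chromosome 7 these were the sites at 94294779 (plus strand; 9 changed reads of 671), 104753795 (plus strand; 5 of 429) and 107564313 (minus strand; 5 of 335). On chromosome 12 they were the sites at 121352942 (plus strand; 9 of 715), 46752285 (minus strand; 5 of 350) and 1599498 (plus strand; 4 of 324). On chromosome 1 the site at 55316963 (minus strand) had 6 of 472, the site at 150443293 (plus strand) had 4 of 364 and the site at 23636281 (minus strand) had between 1 and 4 of 399. The sites chr2:110969110 (minus strand) and chr2:159481708 (plus strand) had 4 of 360 and 4 of 355. The last 3 were the site chr3:150480832 (minus strand; 6 of 436), the site chr16:30735729 (plus strand; 5 of 346) and the site chr14:92609550 (plus strand; 5 of 344). At all of these, the exact interval of the share reached above the fitted rate or, at the site chr1:23636281, the number of changed reads was not resolved.

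The members with the highest C-to-T shares were other and shallower positions. A share of at least 5% was reached by 28 members, counting unresolved sites at their lower bound, and a share of at least 10% by 8. The site chr15:99798467 (plus strand) had 33 or 34 changed reads among 119, a share between 27.7% and 28.6%. The site chr12:111824447 (plus strand) had 32 or 33 among 121, between 26.4% and 27.3%. At the site chr6:168363224 (plus strand) it was 18 among 101 (17.8%, interval 10.9 to 26.7). These 3 were the members farthest above the background rate by the running number.

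Lower in that order were 5 further members with shares over 10%. They were the sites chr3:49548016 (plus strand; 13 of 113 reads, 11.5%) and chr3:52643593 (minus strand; 17 of 164, 10.4%), the sites chr1:567926 (plus strand; 22 of 195, 11.3%) and chr1:1375287 (plus strand; 11 of 108, 10.2%) and the site chr17:37884247 (plus strand; 13 of 116, 11.2%). Their adjusted p-values by the exact binomial test lay between 2.28e-11 and 1.08e-05. The site at 567926 lies in a stretch of chromosome 1 known as a nuclear copy of mitochondrial DNA, so reads there may not be separable from mitochondrial transcripts. The sites named for a high share were chosen after their values were seen.

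The deepest sites found again, picked by their reads in control, had far fewer reads in the knockdown lists. The site chr2:21224714 (minus strand) had 78 changed reads among 3331 in control, 8 among 289 with hairpin 1 and 6 among 291 with hairpin 2. Its coverage was 11.5-fold and 11.4-fold lower in the knockdown lists, and its share was 2.34%, 2.77% and 2.06%. The site chr2:21234077 (minus strand) had 64 of 1816, 9 of 216 and 6 of 219, and its coverage was 8.41-fold and 8.29-fold lower. The site chr1:234743163 (minus strand) went from 2747 reads to 111 and 175, the site chr1:91853097 (minus strand) from 4399 to 157 and 160, and the site chr1:16826300 (plus strand) from 16513 to 59 and 102. In control the changed reads of these chromosome 1 sites were not resolved (184 to 317, 228 to 285 and at least 567, in that order). Those of the last site were not resolved in either knockdown list, nor were those of the site at 234743163 with hairpin 2.

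At most members, the changed reads came to under 1 when divided by the median fall in coverage at deep sites listed again. At the 104 deep sites found again with hairpin 1 the median score was 35.5 reads, and coverage was 10.2-fold lower than in control (quartiles 4.57 to 17.7). At the 93 found again with hairpin 2 it was 36 reads and 8.29-fold lower (3.57 to 17.8). A single changed read supported 56 of 102 resolved knockdown sites with hairpin 1, or 54.9% (interval 44.7 to 64.8), and 40 of 89 with hairpin 2, or 44.9% (34.4 to 55.9). Divided by these median folds, the median member came to 14.3 reads with 0.294 changed reads for hairpin 1 and to 17.6 reads with 0.362 changed reads for hairpin 2. The scaled number of changed reads was under 1 at 241 of 265 members for hairpin 1 and at 233 for hairpin 2. It was also under 1 at 55 of the 90 resolved deep sites that hairpin 1 did list (median 0.833) and at 35 of the 79 that hairpin 2 listed, so sites under 1 were found again too. Among members it was 3 or more at 4 for hairpin 1 and at 5 for hairpin 2. The folds come from sites that a knockdown list held, so positions whose coverage fell further do not enter them. These sites were also chosen, by the same rule as the members, for a high score in control. Such a choice can by itself raise the folds and lower the scaled numbers. Neither effect was measured, so the scaled numbers are a description and do not show why members were absent. The scaled numbers also keep the C-to-T share of control, although the fitted rates of the knockdown lists were lower (1.43% and 1.00%, beside 1.57%). Library totals were not used here, so fewer transcripts, a weaker pull-down and shallower sequencing cannot be told apart in these folds.

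The 4 members with a scaled number of 3 or more for both hairpins were the 2 deepest, at chr18:12326396 (10.0 and 12.3) and at chr12:46754879 (5.29 and 6.51), and the 2 of highest share, at chr15:99798467 (3.23 and 3.98) and at chr12:111824447 (3.14 and 3.86). The first pair had shares at the background rate and the second pair far above it.

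Around a minority of members the knockdown lists held another site on the same strand. Within 50 nt this was so for 16 of 265 members, or 6.04% (interval 3.49 to 9.62), and within 1000 nt for 36, or 13.6% (9.70 to 18.3). The deep sites found again had another knockdown site within 1000 nt at 15.8% (24 of 152, 10.4 to 22.6), and the 3086 shallower absent sites at 4.70% (3.98 to 5.51). Another control site lay within 1000 nt of 76 members, or 28.7% (23.3 to 34.5), of 34.2% of the deep sites found again (26.7 to 42.3) and of 15.7% of the shallower absent sites (14.5 to 17.1). In the list of hairpin 1 alone, 7.17% of members (19 of 265, 4.37 to 11.0) and 13.8% of the deep sites found again (21 of 152, 8.76 to 20.3) had a site of that list within 1000 nt, and in that of hairpin 2 alone 10.6% (28 of 265) and 11.2% (17 of 152). These differences were not tested. No knockdown site lay at a member's base on the other strand.

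**Figure D4:**
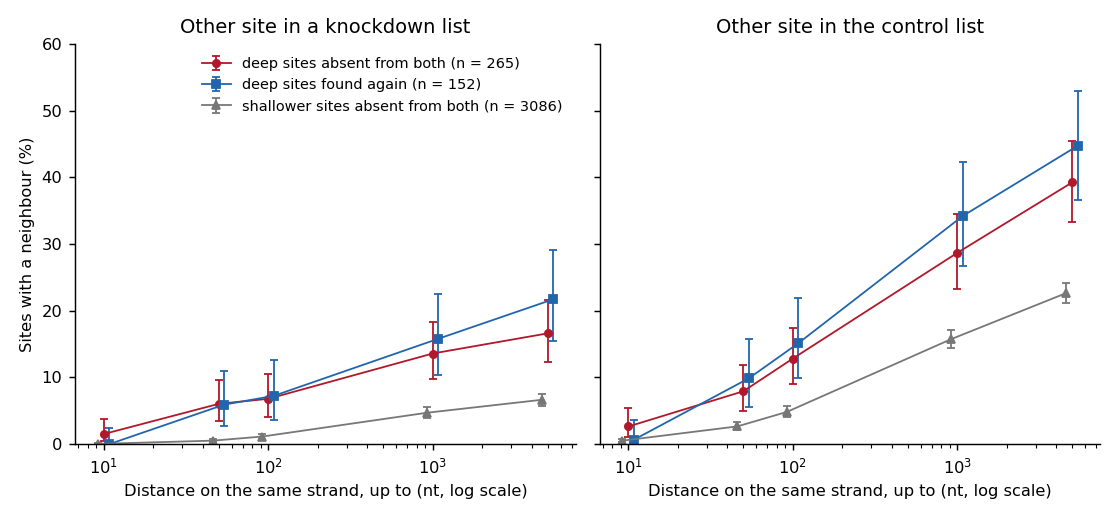
Percentage of sites (y axis, 95% exact intervals) with another site on the same strand up to a given distance (x axis, nt, log scale), in a knockdown list (left) or in the control list (right). At 1000 nt the members (red circles) stand at 13.6% and 28.7%, the deep sites found again (blue squares) at 15.8% and 34.2%, and the shallower absent sites (grey triangles) at 4.70% and 15.7%.

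Knockdown sites within 50 nt give the number of reads close to a base that was not listed. With hairpin 1, 7 members had such a neighbour, with a median of 24 reads (4 to 99), where those members had a median of 167 in control. With hairpin 2, 10 members had such a neighbour, with a median of 82 reads (3 to 380), where the members had a median of 158. In the control list itself, 17 of 21 members with a control neighbour within 50 nt had scores that differed less than 2-fold from it, so a neighbour gives only a rough level. Multiplied by the member's own C-to-T share in control, the neighbour's reads would hold a median of 0.672 changed reads with hairpin 1 and 0.999 with hairpin 2. The lower fitted rates of the knockdown lists are not taken into account.

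Local coverage was far from equally low at these positions. At the site chr18:12326396, with 6489 reads in control, the hairpin 2 list held a site 20 nt upstream with 70 reads, 92.7-fold fewer. Times the member's share this is 1.1 changed reads, beside the 12.3 that the median fold gave. At the site chr1:789452 (plus strand; 128 reads and 2 changed reads in control), a hairpin 2 site 19 nt downstream had 380 reads, and at the site chr16:83845246 (plus strand; 149 reads and 2 changed), a hairpin 2 site 8 nt downstream had 193. Times the member's share in control, these come to 5.94 and 2.59 changed reads. The fitted rate was 1.57% in control but 1.00% with hairpin 2, so products made with control shares may be too high. The hairpin 2 neighbour was deeper by less at chr2:20647915 (126 reads in control, neighbour 131) and chr2:54887165 (106, neighbour 114), both plus strand. The hairpin 2 neighbours at chr1:789452, chr16:83845246, chr2:20647915 and chr2:54887165 were deeper than the member had been in control. The member's own base was not in the list, but deeper positions were listed only with more changed reads, as given above. Every other knockdown neighbour within 50 nt was shallower than its member. Of the 16 members with a knockdown site within 50 nt, the nearest lay downstream along the strand at 14, against 4 of 9 deep sites found again and 7 of 16 shallower absent sites. These counts are small and were not tested.

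Some members lay together. Counting members on a strand with gaps of up to 5000 nt, 34 of them fell into 16 groups of 2 or 3, and 231 stood alone. Sites of a group may share a transcript and reads, so they are not independent. In 12 of the 16 groups, no site of either knockdown list lay within 5000 nt of the members. An empty stretch was also usual for single sites. Another knockdown site lay within 5000 nt of only 44 of 265 members (16.6%) and 302 of 3717 nuclear control sites (8.12%).

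Groups without a nearby knockdown site included the chromosome 12 pair at 46752285 and 46754879 (minus strand, 2594 nt apart, 350 and 3479 reads). On chromosome 5, 3 members spanned 2411 nt of the minus strand from 99388000 to 99390411, with 108 to 298 reads. The chromosome 7 pair at 104753752 and 104753795 (plus strand, 43 nt apart) had 585 and 429 reads. The chromosome 10 pair at 77158400 and 77158657 (minus strand) had 402 and 236 reads, and the chromosome 9 pair at 116930706 and 116931275 (plus strand) had 210 and 306. The closest members were 8 nt apart, at chr7:27832804 and 27832812 (plus strand). Both were covered by 127 reads, with 1 changed read (interval of the share 0.0199 to 4.31%) and 7 changed reads (2.24 to 11.0%). A like pair lay at chrX:50111881 and 50111890 (minus strand), with 2 of 108 and 6 of 109. The intervals of the first pair overlap, and neither difference was tested.

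In the other 4 groups a knockdown list held a site within 5000 nt, and in 3 of these a control site of the stretch was itself found again. The widest was on the plus strand of chromosome 7, where members at 94294779 (9 changed reads of 671) and 94298635 (2 of 197) stood beside control sites at 94294669 (33 of 438) and 94295179 (40 of 582). The site at 94294669 was found again with hairpin 1 (69 reads), and the site at 94295179 with both hairpins (95 and 273 reads). A shallower control site at 94295439 (3 of 70) also recurred, with hairpin 1 (4 reads). The member at 94294779 was the deepest of these positions in control, with fewer changed reads than the sites at 94294669 and 94295179 and more than the site at 94295439. On the plus strand of chromosome 2, members at 20647453 (4 of 239), 20647585 (1 of 107) and 20647915 (2 of 126) stood beside sites at 20647898 (15 of 908) and 20647968 (54 to 56 of 423). Both of those were found with both hairpins, the first with 85 and 131 reads and the second with 15 and 36. On chromosome 19 (minus strand), the site at 1556340 (3 of 133) recurred with hairpin 2 on 34 reads with 1 changed, while the members at 1556268 (5 of 263) and 1556030 (2 of 161) did not. On chromosome 17 (minus strand), members at 76968029 and 76968439 had only knockdown sites of other positions near them, with 5 reads in hairpin 1 and 53 in hairpin 2.

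**Figure D5:**
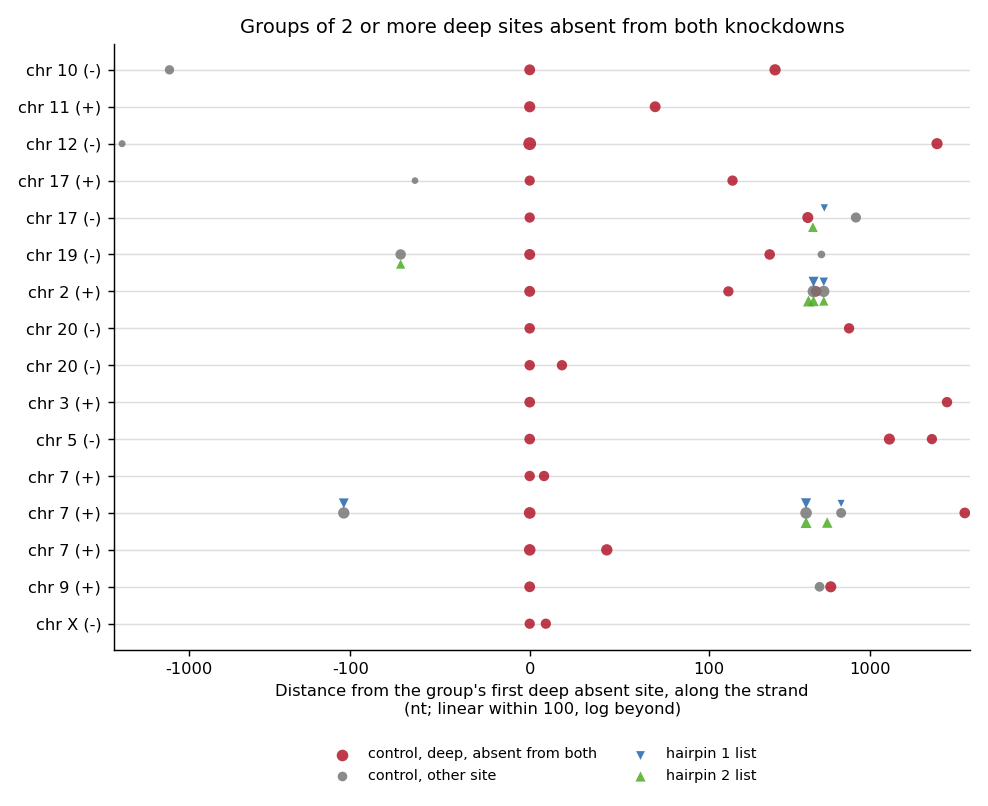
The 16 groups of 2 or more members (rows, by chromosome and strand), with each site at its distance from the group's first member along the strand (x axis, nt, linear within 100 and log beyond). Members are red, other control sites grey, sites of hairpin 1 blue triangles above the line and of hairpin 2 green triangles below it, with larger symbols for more reads; 12 rows hold no triangle.

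The members were spread over all the nuclear chromosomes analysed. Chromosome 2 held 25 of 45 deep sites as members, chromosome 1 held 24 of 35, chromosome 17 held 22 of 33 and chromosome 3 held 20 of 24. The lowest share of deep sites that were members was on chromosome 14, with 7 of 17, and all 3 deep sites of chromosome 13 and all 3 of chromosome 18 were members. These numbers are too small to rank chromosomes. The plus strand held 130 of the 265 members, or 49.1% (interval 42.9 to 55.2), beside 51.8% of all nuclear control sites (50.2 to 53.5).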

How the data were processed

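The 9 samples (3 labelled replicates for each of 3 shRNAs) are represented by 3 deposited site lists, pooled per shRNA per the labels. FastQC 0.11.5, cutadapt 1.13, Bowtie 1.1.2 and build hg19 are named in the submitters' processing notes. For the caller's version, its filters and how the replicates were pooled, nothing is given in the sources used here. The score of each site was set by the authors and deposited as a whole number of at least 3. Positions are 1-based in hg19.

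C-to-T reads were reconstructed with background rates searched from 0.5% to 2.5%. The step from running numbers to changed reads was tested on simulated lists whose rate was known. The search for the rate was not part of that test. The simulated lists shared a single rate and had running numbers without gaps, while in the data only 5.13% of the control running numbers were listed. Read totals per library are unknown. Python 3.11.15, numpy 2.4.6, pandas 2.3.3, scipy 1.17.1 and matplotlib 3.10.9 were used. The members, lists and rules were chosen with earlier results of these data known. Sites named are the 25 deepest members, the 5 deepest sites found again and the 3 on either side of the limit; the gene-based parts of that rule were not applied. Sites of high share, near knockdown sites and in groups were added after seeing the values. An hg19 genome and annotation were not used here, so gene names, transcript regions, motifs and sequences are not given. Other settings were tried for the matching distance, the minimum score, merged sites, the bounds on changed reads and the neighbour distance.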

Additional observations from a re-analysis of the deposited data

How the results depend on the processing

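Allowing a knockdown site within 10 or 50 nt to count as a match left 261 and 249 members of 265, and merging sites within 10 nt left 262. With a minimum score of 50 there were 588 members, or 71.4% of the nuclear control sites at or above that score, with a median C-to-T share of 1.85%. With a minimum of 200 there were 76, or 51.0% of the nuclear control sites at or above it. Alternatives chosen after seeing the data kept sites with 2 or more changed reads (201 members, 59.3%) or sites past the adjusted binomial threshold (36 members, 36.7% of 98 such deep sites). The median share was 1.56% at the lower and the upper bound of changed reads and 1.54% with a minimum of 200. A knockdown neighbour was found for 6.79% of members within 100 nt and 16.6% within 5000 nt, and a control neighbour for 12.8% and 39.2%. Fewer or more sites enter under these settings by construction. No paired analysis was possible because each list pools the replicates, and for the same reason no replicate could be left out. Alternatives on motifs and transcript regions were not run without an hg19 genome. The lists give no reads at bases they do not hold, so coverage of the members in the knockdowns is unknown and its part in their absence was not tested.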
